A study of Homo sapiens with 36 samples.

Results

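NT2/D1-A4 and 2102EP-C1 are cisplatin-resistant clones of the established human embryonal carcinoma lines NT2/D1 and 2102EP, and the 6 libraries compared here were their untreated controls, 3 NT2/D1-A4.VC and 3 2102EP-C1.VC samples out of 36 in the series. The 6 libraries were picked by a rule on their labels, which used no measured value. Earlier results of these data were known when this rule and the gene lists were chosen. Each line is 1 resistant clone, so a difference between them holds the parental lines, the selection of each clone and the experiment it was sequenced in, which cannot be told apart. The study treated both clones with cisplatin, the demethylase inhibitor GSK-J4 or both, and in a further experiment knocked down KDM6A and KDM6B in 2102EP-C1 with shRNA, with pLKO.1 vector cells as controls. The cisplatin arms received 0.5 µM for 6 h and the GSK-J4 arms 1 µM for 3 days. The question here was how alike the clones were without the drug treatments of this study, though both had been derived earlier under cisplatin selection. The answer bears on every comparison the study makes in both of them.

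Embryonal carcinoma is the stem cell component of nonseminomatous testicular germ cell tumors and is held in an undifferentiated state by the transcription factors POU5F1, NANOG and SOX2. Pluripotent human cells can stand nearer to the preimplantation epiblast, called naive, or nearer to the implanted epithelial epiblast, called primed, and NODAL signalling through the co-receptor CRIPTO helps to hold the primed state. Epithelial cells are joined by the adhesion proteins CDH1 and EPCAM and by tight junctions of claudins, occludin and MARVEL domain proteins, whereas mesenchymal cells carry vimentin and CDH2 and express the repressors ZEB1 and ZEB2, which bind E-box letters in the promoters of epithelial genes.

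Levels were log2 CPM, read counts scaled to library size, deposited with a prior count of 3, so a fold change of a gene near 0 reads is understated. The untreated libraries held 30.4 to 43.3 M reads in NT2/D1-A4 and 34.8 to 53.6 M reads in 2102EP-C1. The median SD between replicates over all genes was 0.07 and 0.06 on the log2 scale. Replicate pairs of a line varied by 2.71 to 9.21 times the counting noise, and no pair looked like the same library deposited again. The label gives the tissue as testis. All 8 markers of embryonal carcinoma were listed in both lines, with summed levels of 6007 to 6137 CPM in NT2/D1-A4 and 9235 to 9453 in 2102EP-C1. The 7 testis somatic markers summed to 10.2 to 11.8 and 14.3 to 16.5 CPM with 4 listed in each line, and the 4 fibroblast markers to 13.4 to 15.9 and 28.7 to 31.2 CPM with 2 listed. The yolk sac, choriocarcinoma, seminoma, adult germ cell and blood sets each summed to at most 16.8 CPM in every library. CD74, a blood cell gene, was the one marker of another cell type that was called.

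The lines lay in separately normalised tables, so no p-value was computed between them, and 3 against 3 libraries could not go below 0.10 in a two-sided exact permutation test in any case. A gene was called where the means of the lines differed by at least 2 on the log2 scale, which is 4-fold, and the 3 libraries of one line did not overlap the 3 of the other. Of 15659 genes listed in both tables, 152 were called higher in NT2/D1-A4 (0.971%) and 433 higher in 2102EP-C1 (2.77%), together 3.74%. Counts of calls in the gene lists below stand beside these shares, and a short list with no call is near them. The median difference over all genes was -0.02, and the median absolute difference was 0.41. As a yardstick, the same rule between 2102EP-C1.VC and 2102EP-C1.pLKO1, the same clone in separate tables, called 65 of 16102 genes (0.404%). In that pair, in which one side also carried the vector, 99% of genes differed by less than 1.36. The plot of one line against the other shows the bulk of the genes along the diagonal and more called genes below it than above.

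**Figure D1:**
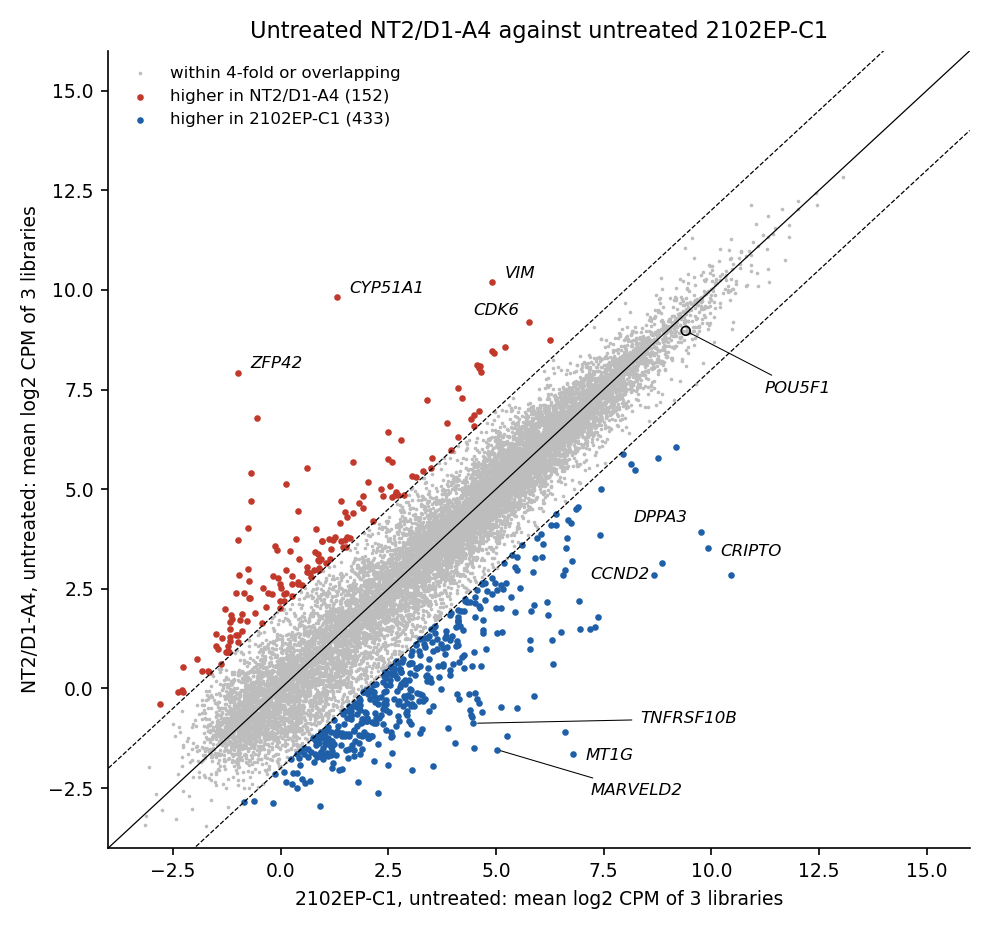
Mean log2 CPM of the 3 untreated NT2/D1-A4 libraries (vertical axis) against the 3 untreated 2102EP-C1 libraries (horizontal axis), 1 point a gene, with the line of equality and dashed lines at a difference of 2. The 152 genes called higher in NT2/D1-A4 are red and the 433 called higher in 2102EP-C1 are blue, and POU5F1 lies near equality at 8.97 against 9.41.

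The core of the pluripotency network was alike in the clones, but 3 of its 25 listed genes were far apart. POU5F1, the factor that defines the undifferentiated state, measured 8.97, 8.93 and 9.02 log2 CPM in the NT2/D1-A4 libraries and 9.43, 9.37 and 9.41 in 2102EP-C1. NANOG measured 8.35, 8.38 and 8.38 against 8.69, 8.66 and 8.67, and SOX2 8.25, 8.22 and 8.23 against 8.35, 8.34 and 8.35. The libraries of the lines did not overlap for these 3 genes, at differences of -0.43, -0.30 and -0.11. These were below 1.36, the bound that held 99% of all genes, low ones included, between separate tables of one clone. For these 3 genes themselves, 2102EP-C1.VC minus 2102EP-C1.pLKO1 was 0.05, -0.01 and 0.24. Against the pLKO.1 cells of 2102EP-C1 the differences were -0.39, -0.32 and 0.13, so that of SOX2 changed sign. The RNA-binding protein LIN28A differed by -0.03 and the transposon-derived L1TD1 by -0.02.

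ZFP42, the REX1 zinc finger that marks undifferentiated cells, had the widest gap of any named gene. It measured 7.90, 7.94 and 7.93 log2 CPM in NT2/D1-A4 and -1.14, -1.05 and -0.82 in 2102EP-C1, where 13 to 26 reads were counted, a difference of 8.93 ± 0.10 (SE, n = 3 and 3). The same clone in the knockdown experiment reached 1.42, so the level of this gene also moved between tables of 2102EP-C1, and the gap to NT2/D1-A4 there was 6.51. CRIPTO (TDGF1 in the list), the NODAL co-receptor, stood on the other side with 3.51, 3.48 and 3.61 against 9.95, 9.90 and 9.93, 83.9-fold higher in 2102EP-C1. TNFRSF8, which encodes CD30 and is the pathologist's marker of embryonal carcinoma, measured 0.14, 0.28 and 0.08 against 2.26, 2.50 and 2.40. Of the 25 core genes 1 was called higher in NT2/D1-A4 and 2 higher in 2102EP-C1, with a list median of -0.23.

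Genes of the naive state were higher in 2102EP-C1 more often than not. Of 16 naive genes, 13 were listed in both tables, 4 were called higher in 2102EP-C1 and none higher in NT2/D1-A4, with a median of -0.74 against -0.02 over all genes. DPPA3, the maternal factor STELLA that protects methylation marks in the early embryo, measured 3.92, 3.77 and 4.07 log2 CPM in NT2/D1-A4 and 9.76, 9.72 and 9.76 in 2102EP-C1, a 56.9-fold gap, and has processed copies elsewhere in the genome that can share its reads. NLRP7, a maternal-effect gene mutated in recurrent hydatidiform mole, measured 1.83, 1.88 and 1.68 against 7.41, 7.34 and 7.38. The factors KLF5 and ESRRB were higher in 2102EP-C1 by 5.15-fold and 5.1-fold. TFCP2L1, another naive factor, differed by -1.89 and was not called, while KLF4 differed by -0.32 and TBX3 by 1.41. KLF17, DPPA5 and KHDC3L were listed only in the 2102EP-C1 table, at means of 0.53, 1.97 and -0.81.

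Primed-state genes were split, with 6 of 11 higher in NT2/D1-A4. The median was 0.47, and only ZIC5 was called, at 4.93, 4.91 and 4.91 in NT2/D1-A4 and 2.63, 2.77 and 2.60 in 2102EP-C1. OTX2, the factor that directs exit from the naive state, measured 5.94, 5.94 and 5.89 against 4.03, 4.02 and 4.01, just under the call threshold at a difference of 1.90, and ZIC2 differed by 1.88. SFRP2, a secreted WNT antagonist, differed by 1.40. On the other side the phosphatase DUSP6 differed by -1.31, TCF7L1 by -0.68, the WNT receptor FZD7 by -0.51 and SALL2 by -0.21. In the germ cell list 9 of 16 genes were listed in both tables and MAEL, a piRNA pathway protein of the germ line, was the single call. It had 2 to 5 reads in each NT2/D1-A4 library and 163 to 252 in 2102EP-C1, -2.81, -2.32 and -2.74 against 2.26, 2.27 and 2.27 log2 CPM. The seminoma markers KIT and PRDM1 differed by 0.41 and -0.73.

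The epithelial list was the farthest from 0 of the 25 lists, which were drawn up with earlier results of these data known. Of its 21 genes 16 were listed in both tables, 9 were called higher in 2102EP-C1, none was called higher in NT2/D1-A4, and the median difference was -2.32. CDH1, the adherens junction cadherin of epithelia (chr16:68737292-68835537, GRCh38.p14), measured 5.79, 5.76 and 5.80 log2 CPM in NT2/D1-A4 and 8.74, 8.75 and 8.78 in 2102EP-C1, a difference of -2.97 ± 0.02 (SE). EPCAM, the epithelial adhesion molecule, measured 6.07, 6.06 and 6.02 against 9.17, 9.19 and 9.20. NT2/D1-A4 thus still held 1926 or more EPCAM reads in each library, and the fold between the lines was 8.81.

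Several tight junction genes were separated further. CLDN7, a claudin of epithelial junctions (chr17:7259903-7263213), measured 1.36, 1.37 and 1.55 in NT2/D1-A4 and 6.52, 6.46 and 6.52 in 2102EP-C1, 33.7-fold apart. MARVELD2, the tricellulin of cell corners (chr5:69415116-69444330), measured -2.10, -1.45 and -1.04 against 4.94, 5.03 and 5.07, with 5 to 12 reads in the NT2/D1-A4 libraries. MARVELD3 was 35.7-fold and occludin (OCLN) 5.11-fold higher in 2102EP-C1. The splicing regulators ESRP1 and ESRP2, which set the epithelial pattern of exon use, were 6.67-fold and 24.6-fold higher, and the protease inhibitor SPINT1 4.91-fold. Not every epithelial gene followed: the keratins KRT8 and KRT18 of simple epithelia differed by -0.04 and -0.23, and the claudin of pluripotent cells CLDN6 by -1.39. Of the 16 genes in both tables, 2 were higher in NT2/D1-A4, by at most 0.60. GRHL2 and OVOL1, transcription factors of epithelia, the small GTPase RAB25 and the protease ST14 were listed only in the 2102EP-C1 table, at 2.80, 2.11, 0.95 and 5.04 log2 CPM. CLDN3 was listed only for NT2/D1-A4, at -1.92.

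Among mesenchymal genes VIM and CDH2 were called, both higher in NT2/D1-A4. VIM, the intermediate filament vimentin (chr10:17228241-17237593), measured 10.24, 10.17 and 10.18 against 4.88, 4.86 and 4.99 log2 CPM, a difference of 5.29 ± 0.05 (SE), or 39-fold. CDH2, the N-cadherin of neural and mesenchymal cells, measured 6.96 ± 0.06 (SD, n = 3) against 4.60 ± 0.06. ZEB2 and ZEB1 were listed in the NT2/D1-A4 table and in neither table of 2102EP-C1. ZEB2 measured 6.01, 5.97 and 6.00 in the untreated NT2/D1-A4 libraries and ZEB1 3.40, 3.37 and 3.65. The list as a whole did not lean this way, since its median was -0.39 over 15 genes: the collagens COL1A1 and COL1A2 of connective tissue differed by -1.71 and -1.72, fibronectin (FN1) by -1.36 and the repressor SNAI1 by 0.01. The marker plot sets VIM, CDH2 and called epithelial genes beside core factors and called naive and NODAL genes, library by library.

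**Figure D2:**
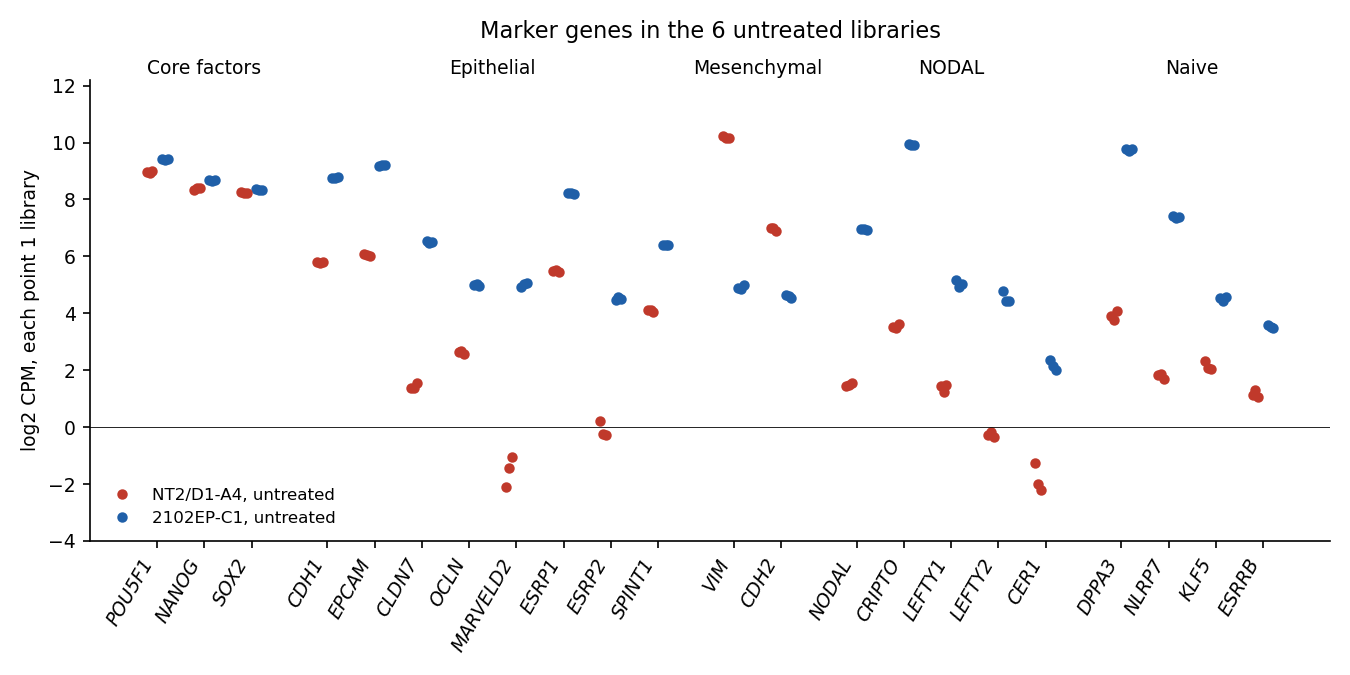
Log2 CPM (vertical axis) of 22 named genes in the 3 untreated NT2/D1-A4 libraries (red) and the 3 untreated 2102EP-C1 libraries (blue), 1 point a library. POU5F1, NANOG and SOX2 lie close together. The epithelial, NODAL and naive genes shown lie higher in 2102EP-C1, and VIM (10.20 against 4.91) and CDH2 lie higher in NT2/D1-A4. Apart from the core factors only called genes are shown, and GREM1, called the other way in the NODAL list, is left out. The full mesenchymal list had a median of -0.39 and the full naive list a median of -0.74.

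Promoter letters of genes that stood apart are shown for the epithelial, mesenchymal and NODAL groups, from the RefSeq starts on GRCh38.p14, written 5′ to 3′ on the strand of the gene with motif matches in capitals. Motifs searched in the 250 bases before a start were the ZEB-type E-box CACCTG or, on the other strand, CAGGTG, and the FOXH1-type AATNCACA or TGTGNATT. Of 35116 RefSeq start windows of this length, 17.5% held an E-box and 2.89% a FOXH1-type match. The window before the downstream start of CLDN7 held 4 E-boxes, and the 21 bases next to this start hold a pair of them (chr17:7262479-7262499, minus strand). That window lies within exon sequence annotated in GENCODE. The window before the upstream CLDN7 start held 0, as did those of VIM and NODAL. CER1, a secreted NODAL inhibitor, is shown for its single match of each kind (chr9:14722734-14722983, minus strand), and VIM (chr10:17227991-17228240, plus strand) and NODAL (chr10:70441682-70441931, minus strand) for having none. The NODAL gene spans chr10:70431936-70447951, so its window precedes a start inside the gene, and the outermost start was not searched. A match is a string of letters and no evidence of binding.
CLDN7 site: tCAGGTGcgcccCACCTGtcc
CER1: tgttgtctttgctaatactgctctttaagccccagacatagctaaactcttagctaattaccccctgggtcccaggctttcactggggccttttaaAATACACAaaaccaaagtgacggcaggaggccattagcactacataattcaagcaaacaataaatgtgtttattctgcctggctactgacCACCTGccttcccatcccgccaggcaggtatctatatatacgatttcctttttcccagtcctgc
VIM: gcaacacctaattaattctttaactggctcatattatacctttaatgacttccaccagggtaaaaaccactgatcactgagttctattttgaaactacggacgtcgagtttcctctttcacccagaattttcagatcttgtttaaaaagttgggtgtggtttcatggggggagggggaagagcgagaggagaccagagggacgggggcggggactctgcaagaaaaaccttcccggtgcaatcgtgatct
NODAL: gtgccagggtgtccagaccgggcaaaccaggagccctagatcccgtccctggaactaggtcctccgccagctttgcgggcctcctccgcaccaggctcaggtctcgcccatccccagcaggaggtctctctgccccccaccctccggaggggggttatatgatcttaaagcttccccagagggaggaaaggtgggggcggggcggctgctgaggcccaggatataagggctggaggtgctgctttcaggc

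The NODAL ligand, its co-receptor and its inhibitors were all higher in 2102EP-C1. NODAL (chr10:70431936-70447951) measured 1.44, 1.49 and 1.55 log2 CPM in NT2/D1-A4 and 6.95, 6.97 and 6.92 in 2102EP-C1, a difference of -5.45 ± 0.03 (SE), or 43.7-fold. The feedback inhibitors LEFTY1 and LEFTY2 measured 1.44, 1.24 and 1.47 against 5.18, 4.91 and 5.01 and -0.26, -0.18 and -0.34 against 4.79, 4.43 and 4.43. LEFTY1 and LEFTY2 are near-identical neighbours on chromosome 1, and reads could have been split between them. CER1 was 16-fold higher in 2102EP-C1, at 4 to 11 reads in the NT2/D1-A4 libraries. The single call in the other direction was GREM1, a secreted BMP antagonist, at 2.36, 2.07 and 2.37 against -0.89, -0.77 and -0.48.

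The receptors and signal carriers of the pathway were not separated in this way. ACVR1B, ACVR2A and ACVR2B, the activin and NODAL receptors, differed by -0.21, 0.15 and -0.22, and SMAD2, SMAD3 and SMAD4, which carry the signal to the nucleus, by -0.06, 0.27 and -0.38. FOXH1, the DNA-binding partner of SMAD2, differed by -1.13, and the ligand GDF3 by -1.99, which missed the threshold. BMP4 differed by -0.13. All 33 genes of the list were listed in both tables, 5 were called higher in 2102EP-C1 and 1 higher in NT2/D1-A4, and the median was -0.13. Every call in the list was a secreted ligand, a secreted inhibitor or the co-receptor.

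Counted in genes, the longest run of neighbouring called genes lay on the long arm of chromosome 7. In reference order, 20 consecutive genes that were listed in both tables with a mean above 0 in the higher line were all called higher in NT2/D1-A4, from STEAP1 to SAMD9 (chr7:90154469-93117979, GRCh38.p14, 2.96 Mb). The differences ranged from 2.64 to 8.51 with a median of 3.44, or 10.8-fold, and 15 of the 20 lay between 3 and 4. The other 665 genes of chromosome 7 had a median difference of -0.11, and 9 of them were called higher in NT2/D1-A4. Together the 20 genes took 0.415 to 0.418% of all reads in the untreated NT2/D1-A4 libraries and 0.0306 to 0.0309% in 2102EP-C1.

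CDK6, the cyclin D-dependent kinase that phosphorylates RB1 at the start of the cell cycle (chr7:92604921-92836573), measured 9.29, 9.18 and 9.15 log2 CPM in NT2/D1-A4 and 5.75, 5.80 and 5.78 in 2102EP-C1. KRIT1, the cerebral cavernous malformation protein, measured 8.48, 8.47 and 8.48 against 4.92, 4.86 and 4.93. AKAP9, a Golgi and centrosome scaffold, and CLDN12, a claudin, differed by 3.46 and 3.34. CDK14, GTPBP10, ANKIB1, GATAD1, MTERF1, RBM48 and FAM133B differed by 3.43, 3.30, 3.46, 3.54, 3.82, 3.95 and 3.07. The differences of these genes lay close together, and the replicate SD was at most 0.10 in either line.

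Lower expressed members of the run were higher in NT2/D1-A4 as well. FZD1, a WNT receptor, measured 3.04, 3.04 and 2.94 against -0.81, -1.39 and -0.09, the metalloreductases STEAP1 and STEAP2 differed by 3.72 and 2.64, CFAP69 by 2.76, the interferon-responsive SAMD9 by 2.86 and the pseudogene TMBIM7P by 3.43. ERVW-1, the endogenous retroviral envelope syncytin-1 of the placenta, lies in the run and measured 3.26, 3.32 and 3.17 against -0.04, 0.74 and 0.61. CYP51A1, the lanosterol demethylase of cholesterol synthesis (chr7:92112153-92134803), stood above the rest with 9.80, 9.82 and 9.84 against a mean of 1.31 ± 0.10 (SD, n = 3), a difference of 8.51 ± 0.06 (SE). All 20 genes were also past the threshold against the pLKO.1 libraries of 2102EP-C1, and the 2102EP-C1 tables differed from each other by at most 0.54 for any of them.

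The difference fell off over a few genes on the distal side and more unevenly on the proximal side, as the plot along the chromosome shows. VPS50 and CALCR, the next neighbours after SAMD9, differed by 1.77 and 1.00, and TFPI2, GNG11 and BET1 beyond them by -0.35, -0.63 and -0.23. On the proximal side SRI and ADAM22 differed by 1.86 and 1.00, DBF4 and SLC25A40 were called again at 2.49 and 2.79, and ABCB4 and CROT before them differed by -1.88 and -0.22. These flanking genes were chosen by position. RNA levels alone do not give the number of gene copies, which was not measured here.

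**Figure D3:**
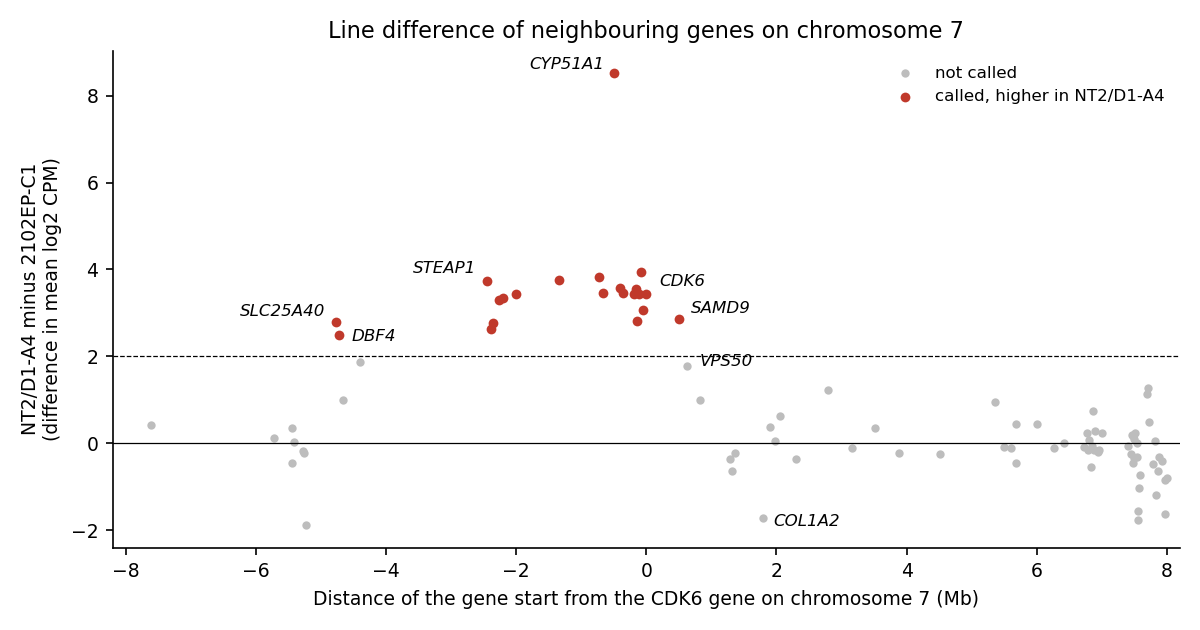
Difference in mean log2 CPM, untreated NT2/D1-A4 minus untreated 2102EP-C1 (vertical axis), of genes listed in both tables against the distance of the gene start from that of CDK6 on chromosome 7 in Mb (horizontal axis), 1 point a gene, with a dashed line at a difference of 2. Red points are called genes: the 20 genes from STEAP1 to SAMD9 form a plateau with a median of 3.44, CYP51A1 lies above it at 8.51, SLC25A40 and DBF4 are called to its left, and SRI and VPS50 lie just under the threshold and no other gene shown is called.

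Other runs held 3 or 4 genes each and were all higher in 2102EP-C1. On chromosome 19 the neighbours DENND1C, TUBB4A, TNFSF9 and CD70 (chr19:6467207-6591150) were called, with CD70, the ligand of CD27, at 0.14, -0.14 and -0.41 against 4.34, 4.26 and 4.49 and the neural tubulin TUBB4A at 2.86, 3.05 and 3.03 against 6.58, 6.64 and 6.56. TNFSF9, the CD137 ligand, differed by -2.76. DENND1C is less certain, since the mean was 3.89 in 2102EP-C1.VC and 1.67 in the pLKO.1 cells of the same clone. On chromosome 3 CRIPTO lay between the called genes LRRC2 and ALS2CL (differences of -2.29 and -2.99; chr3:46515385-46693679). The remaining runs were of LOC283299, LOC107984307 and NLRP10 on chromosome 11, and of 3 and 4 genes on the X chromosome. The first X run held MAGEB6, PPP4R3C and MAGEB2, spread over 4.03 Mb. The second held TENM1, TEX13C, LOC124905212 and DCAF12L2 over 1.79 Mb. MAGEB2, a cancer-testis antigen, measured -1.18, -0.58 and -1.04 against 2.71, 2.66 and 2.65, and reads of MAGE genes can be split among near-identical copies.

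By whole chromosome the medians lay between -0.23 and 0.59. Chromosome 8 (490 genes) was highest in NT2/D1-A4 at a median of 0.59 and chromosome 10 next at 0.34, while chromosomes X, 16, 12 and 1 were lowest at -0.23, -0.22, -0.22 and -0.21. These values cover genes with a mean above 0 in the higher line. Called genes higher in NT2/D1-A4 were most frequent on chromosome 7, with 29 of 685 genes, 20 of them in the run above. Those higher in 2102EP-C1 were spread, with 63 of 1403 genes on chromosome 1 and 41 of 822 on chromosome 12. Chromosome 19 held 39 of 1002 and X 29 of 559.

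Cell cycle genes were close except for a D-type cyclin and its kinase. CCND2, cyclin D2 (chr12:4273762-4305353), measured 3.23, 3.24 and 3.00 log2 CPM in NT2/D1-A4 and 8.83, 8.84 and 8.92 in 2102EP-C1, 52.2-fold higher in the latter. CDK6 stood the other way in the chromosome 7 run. CCND1, cyclin D1, differed by 0.13, CDK4 by -0.32, RB1 by 0.30 and the inhibitor CDKN1B by -1.23. CCND2 and CDK6 were the calls among 21 genes, with a median of 0.04.

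Death receptors showed opposite calls. TNFRSF10B, which encodes the TRAIL receptor DR5 (chr8:23020133-23069031), measured -1.08, -0.85 and -0.69 in NT2/D1-A4, with 13 to 20 reads, and 4.39, 4.47 and 4.57 in 2102EP-C1, a 40.8-fold gap. TNFRSF10A, which encodes the sister receptor DR4 on the same chromosome, measured 3.26, 3.27 and 3.14 against 1.01, 0.70 and 0.90, 5.11-fold higher in NT2/D1-A4. This call is less certain, since the pLKO.1 cells of 2102EP-C1 had a mean of 1.61. The difference of NT2/D1-A4 from them was also 1.61, short of the threshold. FAS differed by 0.37, the adaptor FADD by 0.02, and CASP8 by 0.82. No member of the BCL2 family was called: MCL1 differed by -0.24, BCL2L1 by -0.75, BAX by -0.70, BBC3 by -1.19 and PMAIP1 by -1.06. Among other growth control genes, MDM2, a ubiquitin ligase, differed by 1.47 and the arrest gene CDKN1A by -0.98.

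Of the genes tied to cisplatin handling, 3 of 32 were called (9.38%, beside 3.74% of all genes), all higher in 2102EP-C1. MT1G, a metal-binding metallothionein (chr16:56666730-56668065), measured -2.81, -1.05 and -1.04 in NT2/D1-A4, with 2 to 17 reads, and 6.82, 6.81 and 6.76 in 2102EP-C1, a difference of -8.43 ± 0.59 (SE). MT1H, which follows MT1G on chromosome 16, was listed only in the 2102EP-C1 table, at a mean of 6.26. The relatives in both tables were not called, with MT1X at -0.52, MT1M at -0.52, MT1E at -0.46, MT1F at -0.87 and MT2A at 0.03, and reads of this family can be split among near-identical copies. The glutathione transferases GSTM3 and GSTM4 differed by -2.71 and -2.61, again in a family of close copies. The copper and cisplatin importer SLC31A1 differed by -0.12, the exporters ATP7A and ATP7B by -0.26 and 0.10, and GSTP1 by 0.54. The list median was -0.16. Among 42 repair genes none was called, near the 3.74% over all genes, and the median was 0.11. ERCC1 and XPA, excision repair factors, differed by 0.31 and -0.08, and BRCA1 by 1.00. MGMT, which reverses alkylation damage, was listed only in the 2102EP-C1 table, at 0.37.

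Polycomb and DNA methylation genes, the study's subject, held no call. Since 3.74% of all genes were called, no call in lists of 34 and 16 genes is near that share. KDM6A, an H3K27 demethylase and a target of GSK-J4, measured 6.56, 6.54 and 6.54 log2 CPM in NT2/D1-A4 and 7.10, 7.10 and 7.14 in 2102EP-C1, and KDM6B 3.60, 3.63 and 3.77 against 4.45, 4.45 and 4.67. The differences of -0.57 and -0.86 left the libraries apart but below 2-fold. EZH2, the H3K27 methyltransferase, differed by 0.31, and the 34 genes of the list ranged from -1.61 to 1.72 with a median of -0.01. BMI1 was listed only in the NT2/D1-A4 table, at -1.37, and overlaps a readthrough gene that shares its exons, so its level is uncertain. The de novo methyltransferase DNMT3B measured 10.77, 10.74 and 10.75 against 11.72, 11.76 and 11.68, DNMT3A differed by -0.80 and the maintenance enzyme DNMT1 by -0.02. The 16 DNA methylation genes had a median of 0.06.

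Developmental regulators were apart at single genes. HOXD13 and HOXB2, positional homeobox factors, were called higher in NT2/D1-A4, at 3.39, 3.40 and 3.64 against -0.17, 0.02 and -0.11 and 5.73, 5.73 and 5.78 against 2.47, 2.51 and 2.52. HOXD8, HOXD10, HOXD11 and HOXD12 were listed only in the NT2/D1-A4 table, at -1.12, -1.18, 0.44 and 0.30, while HOXB1 and HOXD1 differed by 1.03 and 0.94. In the trophoblast list TFAP2A, a factor of surface ectoderm and trophoblast, and ERVW-1 were called higher in NT2/D1-A4, with a median of 0.39 over 6 genes. In the endoderm list CER1 and CXCR4 were called higher in 2102EP-C1, and APOB, the apolipoprotein of liver and yolk sac, was listed only there, at 3.34. The endoderm median was 0.95 over 7 genes, and -0.27 with the pLKO.1 libraries in place of 2102EP-C1.VC. AFP has no value in the pLKO.1 libraries, so these medians are not over the same genes and their change cannot be read as one of level. NEFM, a neurofilament, was the single neuroectoderm call (-0.99, -0.63 and -0.86 against 2.80, 2.76 and 2.72), and MIXL1, a primitive streak factor, the single mesoderm call, at 5.4-fold higher in 2102EP-C1. WNT3, the ligand that induces the streak, was 4.54-fold higher in 2102EP-C1, and SFRP1, a WNT antagonist, 4.79-fold higher in NT2/D1-A4, the calls among 24 WNT genes. None of 20 FGF genes was called, near the 3.74% over all genes, with FGF2, FGF4 and the receptor FGFR1 at -0.33, -0.64 and 1.07. Other lineage genes that were not called were GATA4 (1.21) and AFP (1.09) of endoderm, GATA3 of trophoblast (-0.19), nestin (NES) of neural progenitors (-0.57), TBXT and EOMES of the primitive streak (-1.42 and -0.50), and the ligands WNT5A and WNT3A (-1.20 and -0.48). Of the markers of testis cells, the Sertoli cell genes SOX9 and AMH differed by -0.56 and 0.41, and the meiotic SYCP3 by -1.44.

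The matrix and integrin list held 4 calls higher in 2102EP-C1 and 1 higher in NT2/D1-A4, with no lean as a whole. The laminin chains LAMA3 and LAMB3 measured 0.52 ± 0.25 and -1.29 ± 0.15 log2 CPM (SD, n = 3) in NT2/D1-A4 and 3.43 ± 0.09 and 0.84 ± 0.20 in 2102EP-C1. COL6A3 was also called higher there, with 5 to 9 reads in the NT2/D1-A4 libraries, and COL12A1 was called higher in NT2/D1-A4, 5.64-fold. The collagen IV genes COL4A1 and COL4A2 differed by 1.17 and 1.57, the laminin LAMA5 by -0.67 and the integrin ITGA6 by 0.08, and the median over 35 genes was -0.02. No HLA class I or antigen processing gene was called among 13 in both tables, near the 3.74% over all genes. HLA-B differed by -1.89, B2M, the shared light chain, by 1.38, and the peptide transporter TAP1 by -0.35. No imprinted gene was called among 25 in both tables, again near that share, and H19 differed by 0.19. MEG3 and MEG8, maternally expressed noncoding RNAs of one chromosome 14 domain, were listed only for 2102EP-C1, at 5.51 and 4.08. Of the 30 cancer-testis antigens 5 were in both tables, all 5 were lower in NT2/D1-A4, and MAGEB2 was called. The blood marker CD74 was called as well, at 17 to 23 reads in NT2/D1-A4 and 144 to 195 in 2102EP-C1, the only one of the 4 blood markers listed in either table. The plot of 24 lists shows the epithelial list alone with its median past 2.

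**Figure D4:**
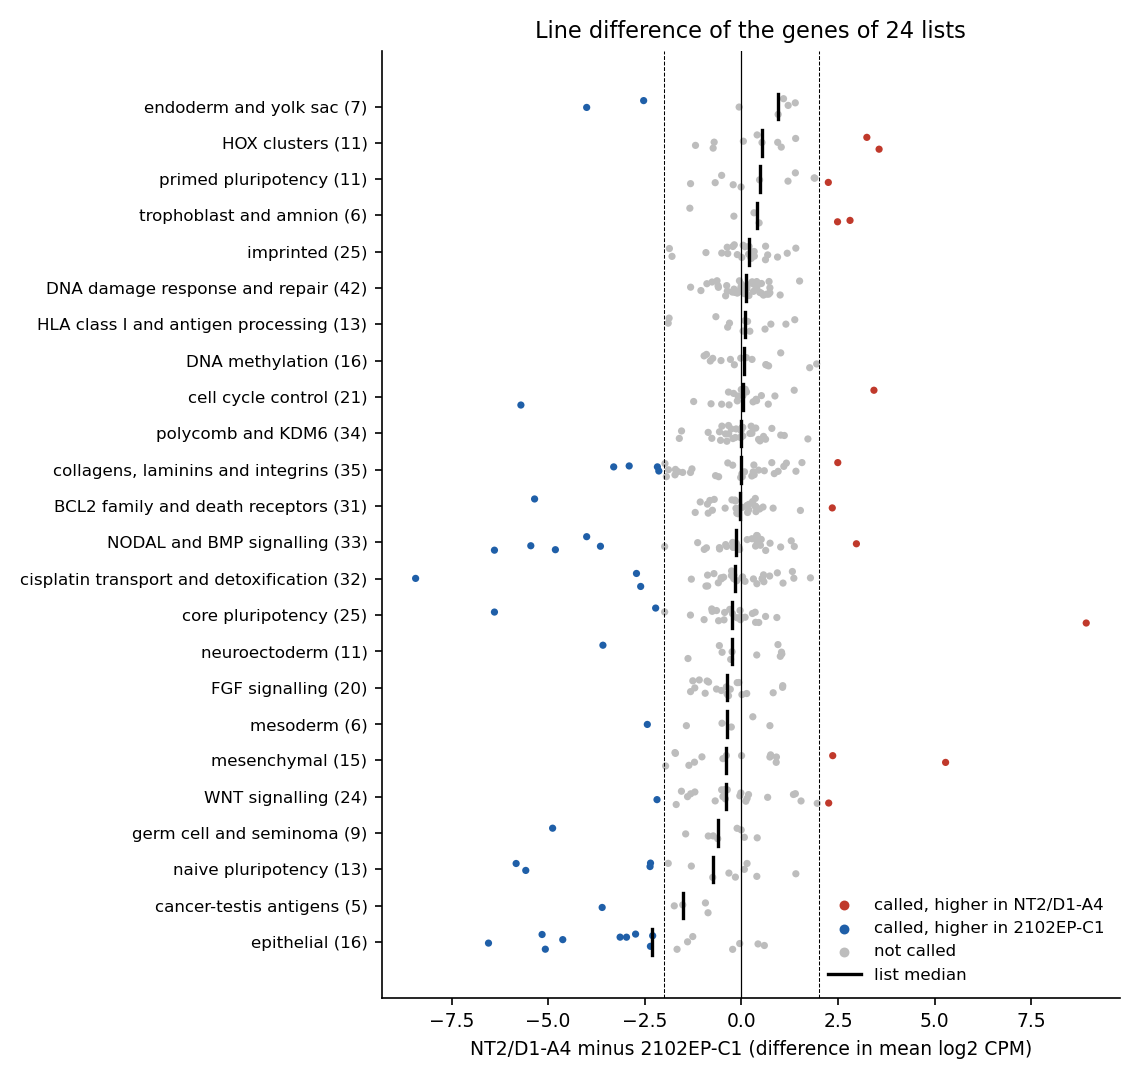
Difference in mean log2 CPM, untreated NT2/D1-A4 minus untreated 2102EP-C1 (horizontal axis), of the genes of 24 lists (vertical axis, with the number listed in both tables), 1 point a gene, black bars at list medians and dashed lines at differences of 2. The epithelial median is -2.32, the next lowest is the cancer-testis median of -1.52 over 5 genes, and the other medians lie between -0.74 and 0.95.

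Outside the lists and runs, the genes with an approved symbol that had the largest differences and a mean of at least 3 log2 CPM in the higher line came from many families. Genes known only by LOC or LINC numbers, some as far apart, are not named. Higher in NT2/D1-A4 were ZNF90, a KRAB zinc finger with close copies on chromosome 19 (5.45, 5.36 and 5.43 against -0.49, -0.77 and -0.82), the bHLH factor OLIG3 of the dorsal neural tube (5.48, 5.55 and 5.56 against 0.81, 0.28 and 0.76), and the protocadherin PCDH11X, which has a near-identical copy on another chromosome (4.79). LRRN3, a leucine-rich repeat membrane protein, differed by 4.70, PCLAF, a PCNA-associated factor, by 4.03, and CHD7, the chromatin remodeler of CHARGE syndrome, by 4.01, at 5.77, 5.67 and 5.62 against 1.65, 1.79 and 1.58. Higher in 2102EP-C1 were the zinc fingers ZNF727 and ZNF728 (63.9-fold and 62.4-fold), HAPLN1, a link protein of hyaluronan matrix (1.31, 1.64 and 1.65 against 7.28, 7.32 and 7.32), MAGI2, a junction scaffold (-5.71), ALPK3, a muscle kinase (-5.58), and VAV1, a blood cell exchange factor (-5.48).

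Genes listed for one line alone were counted apart, since a gene not listed has no value here. NT2/D1-A4 had 753 such genes, of which 59 had an untreated mean above 0, and 2102EP-C1 had 1372, of which 372 did. The highest with an assigned gene name for NT2/D1-A4 were CCNT1, a cyclin of the elongation factor P-TEFb, at 6.04, 6.06 and 6.10, followed by ZEB2, ZEB1, ZNF382 (2.66), SP9 (2.66) and PAX3 (1.88), none of them listed in the knockdown table of 2102EP-C1. The highest for 2102EP-C1 were the metallothionein MT1H at 6.25, 6.34 and 6.19, the membrane protein insertase subunit EMC10 at 6.04, 6.03 and 6.02, the meiotic chromosome protein HORMAD1 at 5.77, 5.79 and 5.82, the LIM protein CSRP1 (5.68), MEG3 and the acyltransferase LCLAT1 (5.13), all listed in the knockdown table too. CCNT1 and EMC10 are broadly expressed genes, so absence from a table is not read here as absence of expression.

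The line differences were largely kept under the drugs. Of the 152 genes higher in untreated NT2/D1-A4, 136 were also called between the cisplatin-treated libraries, 116 between the GSK-J4 libraries and 110 between those given both drugs. Of the 433 higher in 2102EP-C1, 372, 312 and 305 were. The sign of the difference turned for 0, 1 and 3 of the 585 genes. These arms shared the tables of the untreated libraries, but no library. The 20 genes of the chromosome 7 run stayed past the threshold in all 3 drug arms, with differences from 2.51 to 8.30 with cisplatin.

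Because neither cisplatin arm entered the line calls, the effect of GSK-J4 within cisplatin-treated cells could be tested on the called genes inside each table, with limma and Benjamini-Hochberg adjustment over all genes of the table and a call at a fold above 1.3 and adjusted p below 0.05. In NT2/D1-A4, GSK-J4 raised 12.7% and lowered 7.79% of the 15659 genes in both tables. Of the 433 genes that were low in this line and higher in 2102EP-C1, 122 rose (28.2%) and 46 fell (10.6%), with a median change of 0.15. Of the 152 that were high in it, 29 rose (19.1%) and 25 fell (16.4%). In 2102EP-C1 the shares over all genes were 10.5% raised and 8.47% lowered. There 39 of the 152 genes low in this line rose (25.7%) and 16 fell (10.5%), while 68 of the 433 high in it rose (15.7%) and 83 fell (19.2%). These shares are a description only. The authors listed a gene where it exceeded 0.5 CPM in 2 or more libraries of a table, so a gene low in a line may be listed only through the arms in which it rose. MAEL, for example, had an untreated mean of -2.62 in NT2/D1-A4 and reached at most -0.15 in any of the 12 libraries. With a filter of log2 CPM above 1 in every library, 98 of the 433 genes low in NT2/D1-A4 were left, of which 32 were called up and 13 down, where the shares over all 11410 genes left were 9.63% and 6.93%. In 2102EP-C1 53 of 152 were left, of which 14 were called up and 1 down, where the shares over all 11734 genes left were 8.93% and 7.47%. This filter in turn leaves out genes that fell below it in any arm.

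Single genes narrowed, kept or widened the gap. CCND2 in NT2/D1-A4 rose from 3.09 ± 0.06 log2 CPM (SD, n = 3) with cisplatin to 4.74 ± 0.12 with both drugs (limma, adjusted p 2.04e-12) but stayed below the 8.73 of 2102EP-C1. TNFRSF10B rose in both lines, by 1.31 ± 0.25 (SE) in NT2/D1-A4 and 0.79 ± 0.05 in 2102EP-C1 (adjusted p 0.000239 and 5.09e-12, limma), and remained -5.11 apart in the arm with both drugs. LEFTY2 rose by 1.04 ± 0.17 in NT2/D1-A4 (adjusted p 6.87e-05, limma). TNFRSF10A rose by 1.11 ± 0.06 in NT2/D1-A4 (adjusted p 1.22e-10, limma) and by 0.30 ± 0.14 in 2102EP-C1, which missed the call. Its line difference was 2.07 with cisplatin and 2.87 with both drugs. COL12A1 ended below the call threshold: it rose in 2102EP-C1 from 1.57 ± 0.08 to 3.37 ± 0.19, and the line difference went from 2.50 untreated to 0.94 with both drugs. CDK6 changed by 0.04 ± 0.06 and 0.09 ± 0.04, which missed the call in both lines. VIM changed by -0.31 in NT2/D1-A4, short of the fold of 1.3. CCND2, TNFRSF10B, LEFTY2, CDK6, TNFRSF10A and COL12A1 were chosen for the plot by arm after their values were seen.

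**Figure D5:**
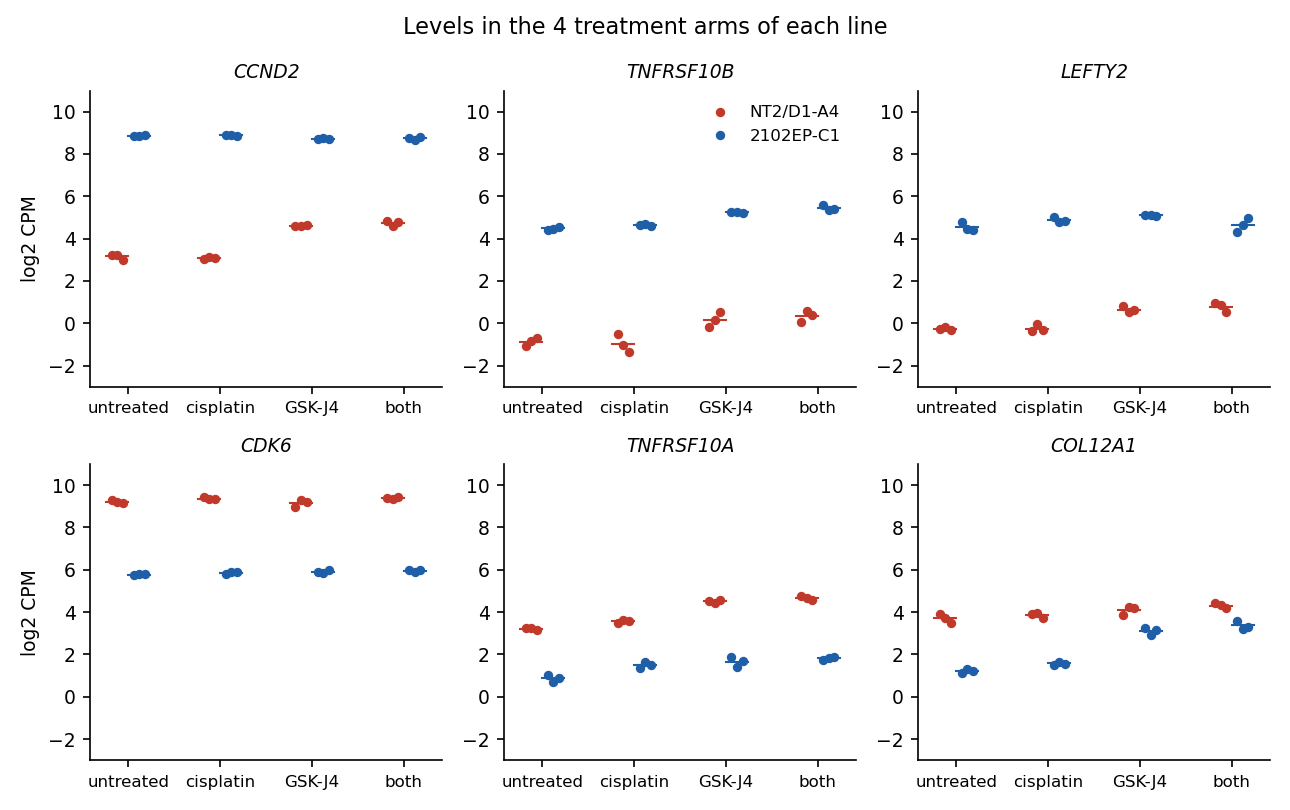
Log2 CPM (vertical axis) of 6 named genes in the untreated, cisplatin, GSK-J4 and combined arms (horizontal axis) of NT2/D1-A4 (red) and 2102EP-C1 (blue), 3 libraries an arm as points and their mean as a bar. CCND2, TNFRSF10B and LEFTY2 stay higher in 2102EP-C1 in every arm, CDK6 and TNFRSF10A stay higher in NT2/D1-A4, and COL12A1 comes to within 0.94 with both drugs.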

How the data were processed

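RNA from NT2/D1-A4 and 2102EP-C1 was made into stranded mRNA libraries, described in the labels and design text as biological triplicates. Per the labels and the submitters' processing notes, the authors aligned reads with STAR to GRCh38.p14, counted them with featureCounts and deposited log2 CPM values, with scaling within each of 3 tables. Tool versions and the strand and multi-mapping settings are not given in the sources used here, so genes with near-identical or overlapping copies are uncertain.

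Means were compared over genes in both tables of the untreated lines, at a difference of 2 on the log2 scale without overlap of libraries. The effect of GSK-J4 within cisplatin-treated cells was fitted in each table over 12 libraries with limma 3.58.1 (trend) in R 4.3.3, with Benjamini-Hochberg adjustment, and the script was tested on simulated data. Reads behind a value were computed back from the deposited values. Named genes were the first 3 members of each list, called list members, KDM6A and KDM6B, the 12 largest differences in each direction with a mean of at least 3 and an approved symbol, members of runs of 3 or more neighbours, and the 6 highest genes listed for one line alone; genes outside this rule are given from fixed lists, by position or as chosen after their values were seen. The members and lists were chosen with earlier results of these data known. Alternatives were joint scaling, centring, another prior count, low-value filters, other thresholds, pLKO.1 libraries, a replicate block and leaving out each library. Y-linked genes, XIST and some genes that the rule would name are not reported here.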

Additional observations from a re-analysis of the deposited data

Results flagged for a closer look

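For 13 named genes, every library given both drugs lay on one side of the cisplatin libraries in NT2/D1-A4 and on the opposite side in 2102EP-C1. Only named genes were screened, and the share of all genes that meet this rule was not computed. The limma p-values below come from the same libraries that picked these genes, so they add no separate support. The values below are combined drugs minus cisplatin on the log2 scale, NT2/D1-A4 first. The difference between the lines was not tested, since the tables were normalised apart. At a fold above 1.3 and an adjusted p below 0.05 (limma), CRIPTO, CCND2, ESRP1, LEFTY1, WNT3 and SOX9 were called in NT2/D1-A4 and SOX9 alone in 2102EP-C1, so 1 of the 13 was called in both lines. EOMES had adjusted p-values of 0.109 and 0.212 (limma), and CDK14 of 0.235 in NT2/D1-A4. CRIPTO, the NODAL co-receptor, was at 0.84 and -0.063. CCND2, cyclin D2, was at 1.65 and -0.16. SFRP2, a WNT antagonist, was at 0.23 and -0.32. EOMES, a mesendoderm factor, was at 0.21 and -0.17. CDH1, E-cadherin, was at -0.35 and 0.28. EPCAM, an epithelial adhesion molecule, was at -0.23 and 0.21. ESRP1, an epithelial splicing regulator, was at -0.84 and 0.091. LEFTY1, a NODAL inhibitor, was at 0.78 and -0.31. WNT3, a WNT ligand, was at 0.66 and -0.11. BRCA1, a repair factor, was at -0.38 and 0.24. SOX9, a developmental factor, was at 0.45 and -0.45. CDK14, a cyclin-dependent kinase, was at 0.047 and -0.22. ANKIB1, a ubiquitin ligase, was at -0.20 and 0.13. No single library was tested for standing apart, since each group had 3.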

How the results depend on the processing

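Scaling both tables together, centring, a prior count of 0.5, a low-value filter, cisplatin-treated libraries or the pLKO.1 libraries left the line counts within 1.5 times (137 to 173 higher in NT2/D1-A4 and 386 to 619 higher in 2102EP-C1). The genes behind the counts changed more. With the pLKO.1 libraries 168 and 619 genes were called, which held 116 of the 152 and 412 of the 433 main calls. Of the 585 main calls, 574 had values in the pLKO.1 libraries. Leaving out each library gave at most 163 and between 425 and 444. At 2-fold the counts were 1048 and 1612, and at 8-fold 41 and 148, by the construction of the threshold. With log2 CPM above 1 in every library, limma called 1102 up and 792 down with GSK-J4 in NT2/D1-A4, and 1066 up and 896 down in 2102EP-C1, with fewer genes tested. Leaving out each library gave 1959 to 2119 up and 1136 to 1464 down in NT2/D1-A4, and 1529 to 1901 up and 1150 to 1690 down in 2102EP-C1. With a replicate block the counts were 2088 and 1269, and 1797 and 1494. Same-numbered libraries correlated at 0.19, 0.053 and 0.28 in NT2/D1-A4 and at 0.0035, -0.038 and 0.095 in 2102EP-C1, so the number was not taken to pair them. H4C3, C13orf42 and LOC124903780, chosen after their values were seen, changed sign with the pLKO.1 libraries, and ZFP42 and DENND1C differed by over 4-fold between the tables of 2102EP-C1; the cause was not tested. List medians under these alternatives moved by less than the spread between replicates in 251 cases and by more in 49. With 3 libraries a line and tables scaled apart, small differences cannot be read.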
